A study of Mus musculus with 12 samples.

Results

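The step from pre-plasmablast to plasmablast in wild-type B cells was examined, the point at which cells that already express the plasma cell regulator Blimp1 gain CD138 on their surface. Members were the 2 wild-type plasmablast libraries (PB) and the 2 wild-type pre-plasmablast libraries (PrePB), taken by their labels, 4 of the 12 libraries in the series. All came from C57BL/6 spleen B cells that were pulled out with B220 beads and grown for 4 days with lipopolysaccharide (LPS) at 25 µg/ml. PB were sorted as CD138+ and positive for green fluorescent protein (GFP) made from the Prdm1 gene, which encodes Blimp1. PrePB were sorted as CD138- and GFP+. The mice were Mzb1+/+ Prdm1+/gfp (wt), so PB and PrePB alike carried 1 reporter allele of Prdm1. Beside them stood 2 wt libraries of activated B cells (ActB, CD138- and GFP-) and 2 libraries each of PB and PrePB from Mzb1-/- Prdm1+/gfp mice (ko), which lack the endoplasmic reticulum (ER) protein Mzb1. The labels do not say whether the 2 libraries of a group came from separate animals or cultures. In wt, sex-linked transcripts place replicates 1 and 2 in different animals, while the ko libraries show no such difference, and p-values measure only the spread between these libraries.

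Plasmablasts are the dividing, antibody-secreting descendants of activated B cells. Blimp1 switches off B cell genes such as Pax5 and, with Irf4 and Xbp1, opens the programme for high-rate secretion, which enlarges the ER and its folding, glycosylation and transport machinery. CD138 is syndecan-1, a heparan sulphate proteoglycan encoded by Sdc1, and is the usual surface marker of antibody-secreting cells in mice. Cells with Blimp1 on and CD138 still absent are regarded as an intermediate, and the comparison asks what else separates them from CD138+ cells.

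Values are FPKM, in which fragments are scaled to transcript length and library size, and the 4 libraries summed to 514886 to 581262 FPKM with 10291 to 10321 genes at 1 FPKM or more. The number of fragments is unknown. Spacing of values under 0.5 FPKM gave PB replicate 2, PrePB replicate 1 and PrePB replicate 2 ratios of 0.928, 1.28 and 1.20 to PB replicate 1. These are ratios of depth only if values were scaled to library totals alone, which the sources do not state. Each ratio was shared by 15.3% to 20.5% of such values. Over genes, which are no independent replicates of each other, log2 values correlated at 0.989 between the PB libraries, at 0.984 between the PrePB libraries and at 0.972 to 0.979 between the groups. Replicate 1 of both groups stood apart from replicate 2 in sex-linked transcripts: Xist was at 33.3 FPKM in PB and 35.3 FPKM in PrePB of replicate 1, against 0.0249 and 0.0321 FPKM in replicate 2. Antibody heavy and light chain transcripts were not analysed here, as 0 of the symbols belong to them.

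The labels were checked first. Sdc1, which set the sort, was at 76.3 and 88.2 FPKM in PB, against 4.91 and 5.24 FPKM in PrePB. The GFP gate that both groups share was matched by Prdm1, at 218 and 226 FPKM in PB and at 233 and 268 FPKM in PrePB. Both genes were used in the sort and are given without a test. Tnfrsf17, which encodes BCMA, a receptor for the survival factors BAFF and APRIL, was not part of the sort, and reached 25.8 and 25.0 FPKM in PB, against 1.71 and 4.59 FPKM in PrePB. The groups did not overlap, and the log2 change of FPKM + 1 was 2.76 (SE 0.38, adjusted p = 0.00226). A lack of overlap is common with 2 libraries a group and by itself says little, here and below. Over all 11069 genes tested, both PB libraries lay above both PrePB libraries for 3265 genes and below them for 2884. Of 5 B cell markers 3 were lower in PB, Cd79a and Pax5 among them, and the sum of the 5 was 1958 and 2110 FPKM in PB, against 2865 and 2942 FPKM in PrePB.

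Markers of other cell types were low in both groups. The 8 T cell markers summed to 47.9 and 40.3 FPKM in PB and to 69.8 and 52.1 FPKM in PrePB, most of it Cd2, with Cd8a at 0. The 5 natural killer markers summed to 5.15 and 6.44 FPKM in PB, against 1.30 and 1.59 FPKM in PrePB, nearly all from Eomes, while Ncr1, Klrb1c and Klrk1 were at 0. The macrophage and granulocyte markers, 8 of 9 present among the symbols, summed to 29.1 and 27.2 FPKM in PB and to 17.4 and 13.9 FPKM in PrePB, mostly Cd68, with S100a8, S100a9, Mpo and Elane at 0. The 5 dendritic cell markers summed to 7.41 and 8.78 FPKM in PB and to 11.8 and 10.1 FPKM in PrePB, with Clec9a at 0. The sums stayed at or below 1.21 FPKM in PB and 0.814 FPKM in PrePB for the erythroid and the stromal and endothelial markers.

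**Figure D1:**
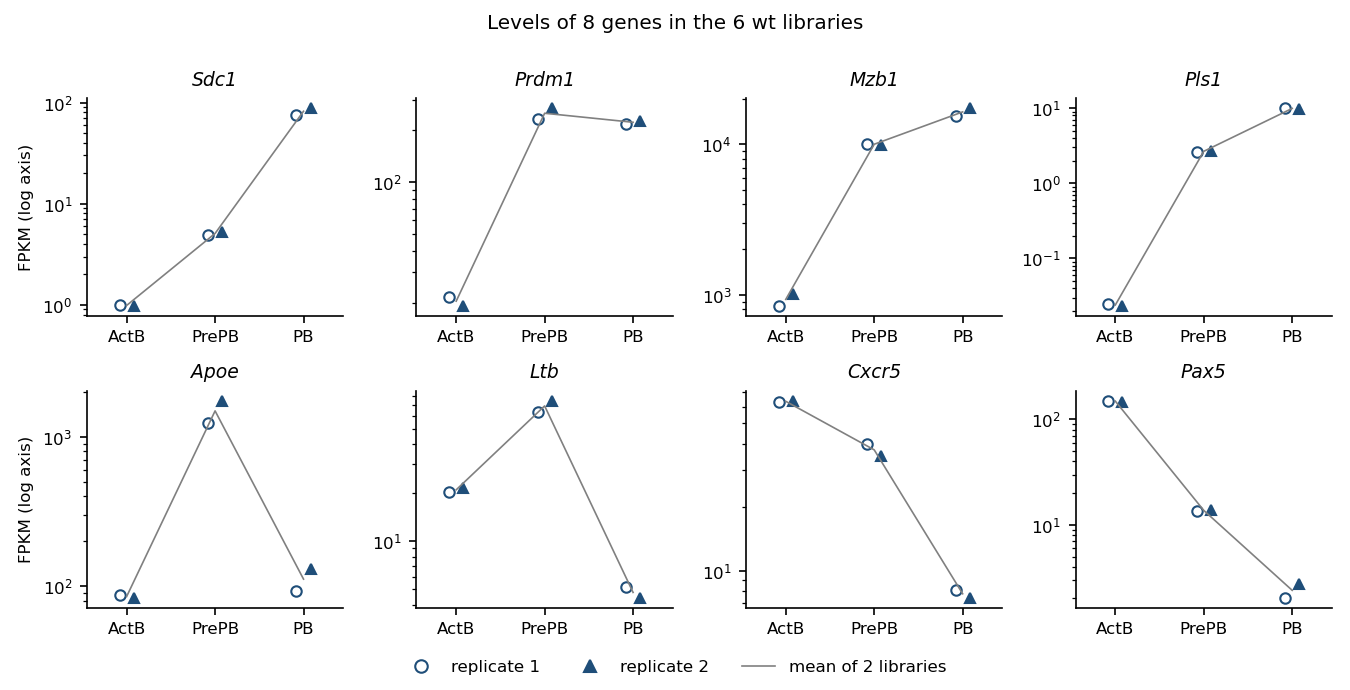
FPKM (log axis, a scale of its own in each panel) of 8 genes in each of the 6 wt libraries, ordered by stage, with the mean of the 2 libraries as a line. Sdc1 lies far higher in PB (76.3 and 88.2) than in PrePB (4.91 and 5.24). Prdm1 differs little (218 and 226 in PB, 233 and 268 in PrePB), and Apoe and Ltb are highest in PrePB.

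The test covered 11069 genes that reached 1 FPKM in 2 or more of the 12 libraries, and 966 were called at an adjusted p below 0.05 (limma, Benjamini-Hochberg over all genes tested), which is 8.73%. In PB 556 genes rose (5.02%) and 410 fell (3.70%), and 146 of the calls had a log2 change of at least 1 in size, 60 of them rises and 86 falls. Counts of calls here and below include Sdc1, whose rise was set by the sort, unless it is said to be left out. With the replicate number as a block the calls were 1558, 919 higher and 639 lower, and 965 of the 966 were among them. The count rested on few libraries: it was 382 without PrePB replicate 1, 364 without PrePB replicate 2, 418 without PB replicate 1, 248 without PB replicate 2 and 58 without replicate 1 of all 3 wt populations. Without each of the 4 libraries in turn, 185 genes kept their call, 80 higher and 105 lower in PB. Rescaling the libraries to equal totals moved the median log2 change of all genes to -0.130 from 0.009, and with it the share of higher calls to 21.6% from 57.6% (315 higher, 1143 lower). Counts of list members below are to be read against the counts over all genes in the same setting. Changes below are on the deposited scale unless stated. Since 1 was added to each value, they understate the change of genes near or below 1 FPKM.

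**Figure D2:**
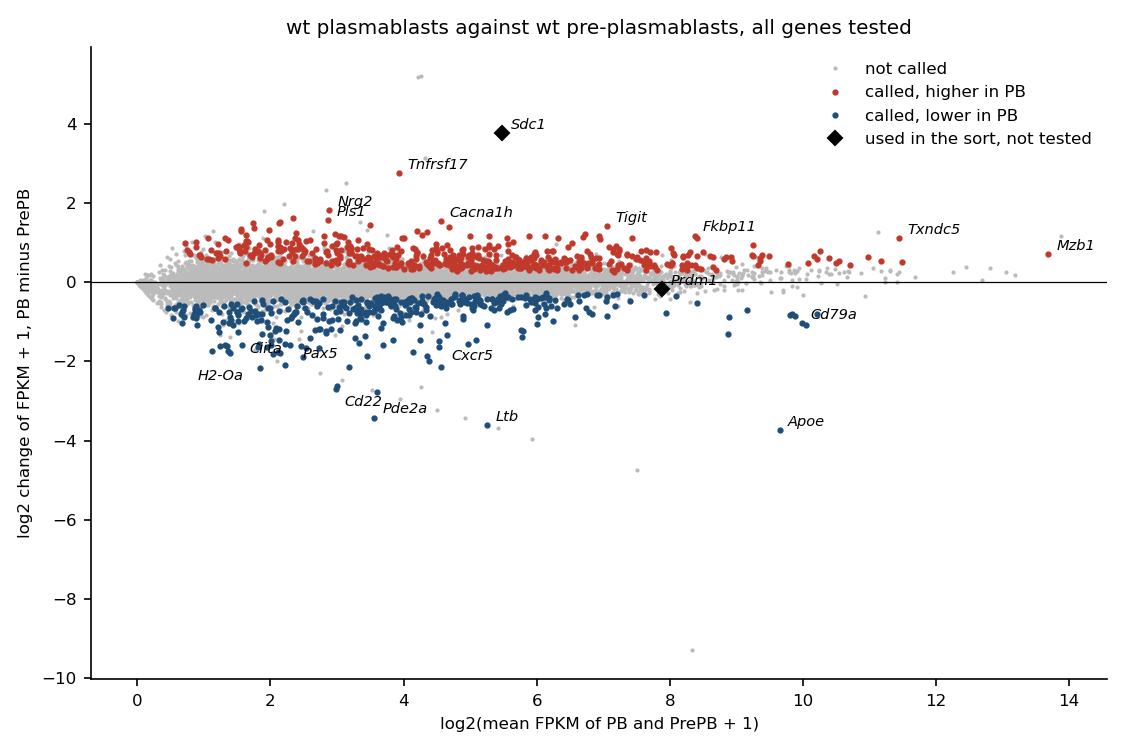
Log2 change of FPKM + 1 (PB minus PrePB) against the log2 of the mean FPKM of the 4 wt libraries plus 1, 1 point for each of 11069 genes tested. Coloured points are calls, and the unlabelled grey points far from 0 are mostly small RNA genes that were listed at 0 in some libraries.

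After Sdc1 and Tnfrsf17, the largest rise was that of Nrg2. Nrg2, a growth factor of the neuregulin family, was at 9.84 and 11.2 FPKM in PB and at 2.02 and 2.50 FPKM in PrePB (log2 change 1.82, SE 0.16, adjusted p = 0.000167). Pls1, an actin-bundling plastin, was at 10.0 and 9.86 FPKM in PB and at 2.61 and 2.72 FPKM in PrePB. Cacna1h, the pore subunit of a T-type calcium channel, was at 34.3 and 33.8 FPKM in PB and at 11.0 and 10.9 FPKM in PrePB. The spread between the libraries of a group was small beside the difference in each of these 3 genes. Eomes, a T-box transcription factor best known from T and natural killer cells, was at 5.15 and 6.01 FPKM in PB, against 1.30 and 1.26 FPKM in PrePB, while 3 markers of natural killer cells were at 0. Tigit, an inhibitory receptor, was at 229 and 156 FPKM in PB and at 78.3 and 62.6 FPKM in PrePB (log2 change 1.42, SE 0.25, adjusted p = 0.00738). The orphan receptor gene Gpr160 (1.44) and the extracellular matrix gene Papln (1.39) rose too. The remaining 3 of the 12 largest rises were Gm21975 (1.63), Oosp2 (1.51) and Arl9 (1.51), each below 8 FPKM in both PB libraries. Tigit, Papln, Oosp2 and Arl9 lost their call without at least 1 of the 4 libraries, and the other 7 tested genes of the 12 kept it without each.

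The falls of Apoe, Ltb and Pde2a were larger in size than any called rise of a gene not used in the sort. Apoe, which encodes the lipid carrier apolipoprotein E, was at 92.6 and 130 FPKM in PB, against 1237 and 1757 FPKM in PrePB. It fell 13.3-fold on the FPKM + 1 scale (log2 change -3.74, SE 0.29, adjusted p = 8.58e-05). Ltb encodes lymphotoxin beta, a membrane cytokine that B cells use to organise lymphoid tissue. It was at 5.15 and 4.41 FPKM in PB, against 63.9 and 75.1 FPKM in PrePB, 12.2-fold lower (log2 change -3.61, SE 0.22, adjusted p = 1.6e-05). Pde2a, a cyclic nucleotide phosphodiesterase, was at 1.27 and 0.781 FPKM in PB, against 19.8 and 21.3 FPKM in PrePB (log2 change -3.42, SE 0.17, adjusted p = 6.15e-06). No library of one group reached the range of the other in any of these genes. Ms4a4c (-2.62), a member of the CD20 family, and Ptgir (-2.08), the prostacyclin receptor, fell as well. Of the 12 largest falls only Ptgir lost its call without 1 of the 4 libraries.

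Homing receptors and adhesion molecules split into genes that fell and genes that rose. Of 34 tested members of that list, 7 fell and 6 rose, with a median log2 change of 0.06, against 3.70%, 5.02% and a median of 0.01 over all genes tested. The falls were led by receptors that take B cells into lymph nodes and follicles. Cxcr5, the receptor for the follicle chemokine CXCL13, was at 8.12 and 7.41 FPKM in PB, against 39.9 and 34.9 FPKM in PrePB (log2 change -2.13, SE 0.11, adjusted p = 6.63e-06). Ccr7, the receptor for T zone chemokines, was at 1.30 and 1.57 FPKM in PB, against 5.61 and 7.12 FPKM in PrePB. The integrin chains Itgam (-1.74), Itgb3 (-1.17) and Itga6 (-1.01) and the sphingosine 1-phosphate receptor S1pr3 (-0.95) fell as well. Among the rises, Icam2, an adhesion ligand for leukocyte integrins, was at 177 and 202 FPKM in PB and at 105 and 114 FPKM in PrePB (log2 change 0.78), and the others were Mcam (1.34), Itgb5 (0.87), S1pr2 (0.49), Cd44 (0.44) and the selectin ligand Selplg (0.43). All 6 rises, and S1pr3, lost their call without at least 1 of the 4 libraries.

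Several receptors known for guiding plasma cells did not pass the test. Cxcr4, the receptor that draws plasma cells to bone marrow, was at 162 and 189 FPKM in PB and at 198 and 199 FPKM in PrePB (adjusted p = 0.479). S1pr1, which directs exit into the circulation, was at 15.1 and 19.8 FPKM in PB and at 27.7 and 34.2 FPKM in PrePB (adjusted p = 0.0658, and 0.00214 with the replicate block). Itga4, the alpha chain of VLA-4, was at 75.6 and 64.0 FPKM in PB and at 47.3 and 49.9 FPKM in PrePB (adjusted p = 0.0914, and 0.0123 with the block). Itgb1, its partner, was at 37.7 and 36.3 FPKM in PB and at 34.4 and 35.8 FPKM in PrePB.

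Plasma cell receptors also moved in both directions. Leaving out Sdc1, 6 of 30 tested members of the list rose and 5 fell, with a median log2 change of 0.12. With equal totals 5 of the 31, Sdc1 among them, rose and 6 fell, beside 315 and 1143 of all 11069 genes tested. Besides Tnfrsf17 and Tigit, the rises were Ly6c2 (1.29), the costimulatory receptor Cd28 (0.98), Slamf7 (0.52) and Cd44 (0.44). Cd28 was at 25.8 and 31.7 FPKM in PB and at 12.2 and 16.1 FPKM in PrePB, and the value of Ly6c2 is uncertain because its reads can be shared with its close copy Ly6c1. The falls were mainly cytokine receptors. Il2ra, the alpha chain of the interleukin 2 receptor, was at 17.6 and 16.5 FPKM in PB, against 47.3 and 50.8 FPKM in PrePB (log2 change -1.47, SE 0.16, adjusted p = 0.00065). Il21r, the interleukin 21 receptor, was at 97.5 and 91.7 FPKM in PB, against 168 and 171 FPKM in PrePB (log2 change -0.84), and Il10ra fell by 1.12. Cd38 (-0.74) and the Fc receptor-like gene Fcrl5 (-1.08) fell too. Without each of the 4 libraries in turn the calls kept were those of Tnfrsf17, Il2ra and Il21r.

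The other receptors for BAFF and APRIL did not pass the test. Tnfrsf13b, which encodes TACI, was at 358 and 395 FPKM in PB and at 299 and 301 FPKM in PrePB (adjusted p = 0.118, and 0.0274 with the block). Tnfrsf13c, the BAFF receptor, was at 263 and 251 FPKM in PB and at 235 and 220 FPKM in PrePB (adjusted p = 0.269). Lag3, an inhibitory receptor of regulatory plasma cells, was at 233 and 189 FPKM in PB and at 232 and 203 FPKM in PrePB, so its groups overlapped.

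Among plasma cell regulators other than Prdm1, 3 of 26 tested rose and 2 fell, with a median log2 change of 0.17. With equal totals 3 rose and 5 fell, and with the block 4 rose and 4 fell. Of all 11069 genes tested, 315 rose and 1143 fell with equal totals, and 919 rose and 639 fell with the block. Xbp1, which drives expansion of the secretory apparatus, was at 2363 and 2519 FPKM in PB and at 1579 and 1568 FPKM in PrePB (log2 change 0.63, SE 0.09, adjusted p = 0.00356). Eaf2, a partner of the elongation factor Ell2, was at 196 and 206 FPKM in PB and at 125 and 124 FPKM in PrePB (0.69). Cbfa2t3, a transcriptional corepressor, was at 4.65 and 4.69 FPKM in PB and at 2.06 and 2.47 FPKM in PrePB (0.80). Zbtb32, a repressor first induced in activated B cells, was at 6.56 and 7.44 FPKM in PB, against 29.2 and 23.3 FPKM in PrePB (log2 change -1.76, SE 0.14, adjusted p = 0.000105). Id2, an inhibitor of E proteins, fell by 0.93. All 5 kept their call without each of the 4 libraries. Irf4, which acts with Blimp1, was at 268 and 289 FPKM in PB and at 223 and 240 FPKM in PrePB (adjusted p = 0.204). Ezh2, the Polycomb methyltransferase, was at 105 and 76.2 FPKM in PB and at 154 and 125 FPKM in PrePB (adjusted p = 0.056, and 0.00231 with the block).

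Where B cell transcription factors were called, they fell. Of 37 tested, 0 rose and 7 fell, with a median log2 change of -0.18, while 5.02% of all genes tested rose and 3.70% fell. The falls called over all 11069 genes tested were 1143 with equal totals. With equal totals 14 fell, and with 1 of the 4 libraries left out 2 to 4 fell. Pax5, the factor that maintains B cell identity, was at 2.02 and 2.76 FPKM in PB, against 13.6 and 13.8 FPKM in PrePB, 4.36-fold lower (log2 change -2.13, SE 0.12, adjusted p = 1.42e-05). Spib, an Ets family factor, was at 4.37 and 3.91 FPKM in PB, against 12.2 and 15.7 FPKM in PrePB (-1.53). These were the 2 that kept their call without each library. The other 5 were Bcl11a (-1.17), Irf8 (-0.65), Ebf1 (-0.61), Notch2 (-0.61) and Nfatc1 (-0.55). Bach2, which restrains Blimp1 in B cells, was at 4.19 and 4.15 FPKM in PB and at 3.99 and 6.68 FPKM in PrePB, with overlap between the groups, and Myc was at 62.2 and 48.8 FPKM in PB and at 60.5 and 47.2 FPKM in PrePB.

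The B cell receptor and its co-receptors fell in part. Of 45 tested members, 14 fell and 2 rose, with a median log2 change of -0.20, while 3.70% of all genes tested fell and 5.02% rose. Cd22, an inhibitory sialic acid receptor, was at 1.26 and 0.971 FPKM in PB, against 12.7 FPKM in each PrePB library, 6.49-fold lower (log2 change -2.70, SE 0.25, adjusted p = 0.00025). Cd72, another inhibitory co-receptor, was at 7.89 and 6.88 FPKM in PB, against 34.5 and 30.0 FPKM in PrePB (-1.99). Cd79a, a signalling chain of the receptor itself, was at 586 and 741 FPKM in PB, against 1296 and 1422 FPKM in PrePB (log2 change -1.04, SE 0.16, adjusted p = 0.00377). Its partner chain Cd79b was at 915 and 927 FPKM in PB and at 1010 and 1003 FPKM in PrePB (adjusted p = 0.631), and the difference between the 2 chains was not tested. The protein kinase C gene Prkcb (-1.03) and the Btk-binding adaptor gene Sh3bp5 (-0.98) fell. Cd22, Cd72, Cd79a, Prkcb and Sh3bp5 kept their calls without each of the 4 libraries and the other 11 did not, so that 6 to 8 falls were called with 1 library left out. The rises were Cd81 (0.65), a tetraspanin of the B cell co-receptor complex, and Cr1l (0.40).

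Genes of MHC class II, which presents peptides to CD4 T cells, formed the list with the lowest median. Of 23 tested members of the list with its costimulatory molecules, 11 fell and 0 rose, with a median log2 change of -0.69, which was -0.71 with quantile normalization and -0.85 with equal totals. Ciita, the transactivator on which class II transcription depends, was at 1.30 and 1.51 FPKM in PB, against 8.01 and 7.67 FPKM in PrePB (log2 change -1.88, SE 0.18, adjusted p = 0.000319). H2-O and H2-DM, which control peptide loading, fell with it. H2-Oa was at 0.479 and 0.172 FPKM in PB, against 4.71 and 5.04 FPKM in PrePB (-2.16), and H2-DMb2 (-1.58), H2-DMb1 (-1.40), H2-DMa (-0.84) and H2-Ob (-0.69) fell as well. H2-Ab1, a chain of the peptide-presenting molecule, was at 634 and 701 FPKM in PB, against 1207 and 1216 FPKM in PrePB, 1.82-fold lower (log2 change -0.86, SE 0.15, adjusted p = 0.00756). H2-Aa (-0.79) and H2-Eb1 (-0.69) were close to it. Ciita, H2-Oa, H2-Eb2, H2-DMa, H2-DMb1 and H2-DMb2 kept their call without each library, and 7 or 8 falls were called with 1 left out.

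Not every gene of the class II pathway followed. Cd74, the invariant chain, which binds class II molecules until peptide is loaded, was at 9622 and 10197 FPKM in PB and at 8635 and 8706 FPKM in PrePB (log2 change 0.19, SE 0.19, adjusted p = 0.572). Rfx5, Rfxap and Rfxank, the subunits of the factor that brings Ciita to class II promoters, had log2 changes of -0.04, 0.02 and 0.12, none of which passed. Ctss, the protease that trims the invariant chain, was at 715 and 787 FPKM in PB and at 586 and 578 FPKM in PrePB (adjusted p = 0.0872, and 0.0437 with the block). The costimulatory ligand Cd86 fell by 1.01, and Cd80 was at 12.2 and 14.3 FPKM in PB and at 16.4 and 15.2 FPKM in PrePB.

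**Figure D3:**
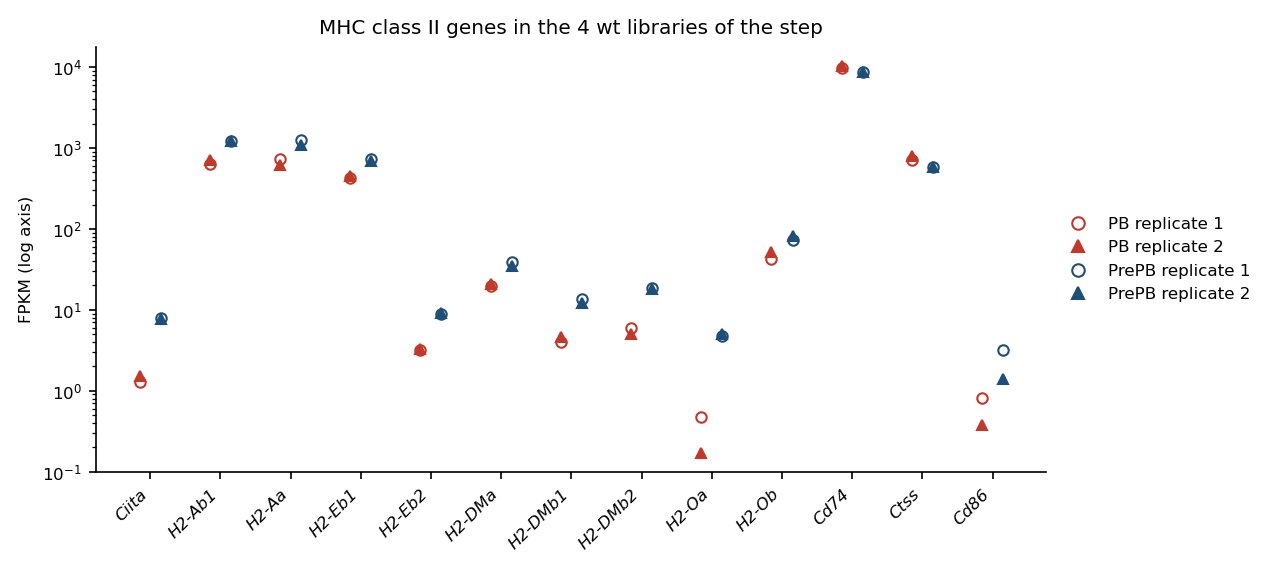
FPKM (log axis) of 13 genes of the MHC class II pathway in the 4 wt libraries of the step, PB in red left of PrePB in blue, with a marker for each replicate. PB lie below PrePB for Ciita and the H2 genes, and above for Cd74 and Ctss, neither of which was called.

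Class II promoters share short elements just upstream of their start, among them a Y box that holds the letters CCAAT, here searched on both strands. In the 250 bases before the RefSeq start (GRCm38.p6), CCAAT or its reverse complement ATTGG occurred in all 8 class II H2 genes of the list that have an entry, against 37.5% of 27025 genes. The letters are not particular to genes that fell. They also occurred in 28 of 37 genes for ER folding and degradation with an entry (75.7%), a list with 18 rises and 0 falls. The windows of H2-Aa and H2-Eb1 are printed with those letters in capitals, because both genes fell in PB and both hold the letters within 60 bases of the start. The windows are chr17:34287824-34288073 (minus strand) for H2-Aa and chr17:34305617-34305866 (plus strand) for H2-Eb1, and neither overlaps a GENCODE exon of the gene. A match of letters is a description and not evidence of a bound site.
H2-Aa: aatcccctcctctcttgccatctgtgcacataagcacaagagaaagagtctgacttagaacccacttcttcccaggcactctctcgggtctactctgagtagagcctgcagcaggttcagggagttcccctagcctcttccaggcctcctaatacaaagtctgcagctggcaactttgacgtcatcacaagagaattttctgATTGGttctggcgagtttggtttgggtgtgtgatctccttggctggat
H2-Eb1: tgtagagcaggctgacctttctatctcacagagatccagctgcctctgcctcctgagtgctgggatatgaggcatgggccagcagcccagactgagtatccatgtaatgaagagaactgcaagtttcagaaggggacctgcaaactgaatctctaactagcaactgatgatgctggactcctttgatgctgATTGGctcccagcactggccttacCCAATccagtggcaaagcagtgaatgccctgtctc

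Genes of the secretory machinery rose where they were called, with most members not passing. Of 47 tested genes for ER folding and degradation, 18 rose by up to 2.27-fold and 0 fell, with a median log2 change of 0.31. Over all genes tested 5.02% rose and 3.70% fell. The medians were 0.19 with quantile normalization, with 9 rises and 1 fall, and 0.15 with equal totals, with 11 rises. With 1 of the 4 libraries left out, 5 to 10 members were called. Fkbp11, an ER peptidyl-prolyl isomerase, was at 449 and 470 FPKM in PB, against 209 and 195 FPKM in PrePB, 2.27-fold higher (log2 change 1.18, SE 0.14, adjusted p = 0.000821). Txndc5, a disulfide isomerase, was at 3640 and 4018 FPKM in PB, against 1733 and 1781 FPKM in PrePB, 2.18-fold higher (1.12, SE 0.17, adjusted p = 0.00339). Fkbp2, another isomerase, was at 794 and 804 FPKM in PB and at 407 and 418 FPKM in PrePB (0.95). Sil1, the nucleotide exchange factor of the chaperone BiP, was at 177 and 185 FPKM in PB and at 101 and 100 FPKM in PrePB (0.84). Edem2, which trims mannose from misfolded glycoproteins, rose by 0.65. These 5 kept their call without each of the 4 libraries.

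Mzb1 was among the most abundant transcripts of both groups, and of the settings tried only quantile normalization reversed its direction. It was at 15434 and 17359 FPKM in PB and at 10066 and 9926 FPKM in PrePB (log2 change 0.71, SE 0.13, adjusted p = 0.00812), while quantile normalization gave -0.51 (SE 0.10, adjusted p = 0.0122). Jchain, which links antibody units into polymers and was picked out after its values were seen, was at 19054 and 22617 FPKM in PB and at 8738 and 9629 FPKM in PrePB (log2 change 1.18, SE 0.35, adjusted p = 0.066, and 0.0237 with the replicate block). Slpi, a secreted protease inhibitor also picked out after its values were seen, was at 1171 FPKM in replicate 1 and 5171 FPKM in replicate 2 of PB, and at 492 FPKM in replicate 1 and 2084 FPKM in replicate 2 of PrePB. Its replicates differed more than its groups, yet the ratio of PB to PrePB was 2.38 in replicate 1 and 2.48 in replicate 2 (adjusted p = 0.474, and 0.00423 with the block).

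Of 3 abundant ER chaperones picked out after their values were seen, none passed the test, while Edem1 (0.67), Pdia4 (0.49) and Sel1l (0.43) of the same list rose. Hspa5, which encodes BiP, was at 2321 and 2519 FPKM in PB and at 2350 and 2451 FPKM in PrePB (log2 change 0.01, SE 0.12, adjusted p = 0.969). Hsp90b1, which encodes Grp94, the partner of Mzb1, was at 5162 and 5489 FPKM in PB and at 4380 and 4490 FPKM in PrePB (0.26, adjusted p = 0.233). Calr was at 3392 and 3466 FPKM in PB and at 3146 and 3126 FPKM in PrePB (0.13, adjusted p = 0.536). The ER stress element of such genes reads CCAAT, then any 9 bases, then CCACG, and a match includes one of CCAAT alone. It was found on either strand in the 250 bases before the start in 9 of the 37 list members with a RefSeq entry, against 0.13% of 27025 genes. The 9 were Hspa5, Hsp90b1, Calr, Canx, Pdia6, Dnajc3, Creld2, Derl3 and Syvn1. Their log2 changes ran from 0.01 to 0.39 with a median of 0.24, and Derl3 alone was called, joined by Dnajc3 with the replicate block (adjusted p = 0.0216, against 0.0826 without). Among the 28 members with an entry and no such match the median was 0.43 and 15 were called. In the step before, from ActB to PrePB, the medians of the same 9 and 28 genes were 2.51 and 2.38. The split by motif was made after these values were seen and was not tested.

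The element is shown, with its 2 ends in capitals, for Derl3, a component of ER-associated degradation, and for Creld2, an ER disulfide isomerase, since the first was called and the second was not. Derl3 was at 456 and 455 FPKM in PB and at 347 and 349 FPKM in PrePB (log2 change 0.39, adjusted p = 0.0488), and Creld2 was at 826 and 882 FPKM in PB and at 697 and 672 FPKM in PrePB (0.32, adjusted p = 0.127). Both match on the strand opposite to the gene. The windows, from RefSeq on GRCm38.p6, are chr10:75893148-75893397 and chr15:88819396-88819645, both plus strand, and overlap no GENCODE exon of the gene.
Derl3: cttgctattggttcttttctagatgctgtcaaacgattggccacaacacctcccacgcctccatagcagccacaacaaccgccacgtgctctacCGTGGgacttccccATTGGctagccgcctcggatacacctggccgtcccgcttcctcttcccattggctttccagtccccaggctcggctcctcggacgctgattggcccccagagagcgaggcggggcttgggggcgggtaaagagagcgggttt
Creld2: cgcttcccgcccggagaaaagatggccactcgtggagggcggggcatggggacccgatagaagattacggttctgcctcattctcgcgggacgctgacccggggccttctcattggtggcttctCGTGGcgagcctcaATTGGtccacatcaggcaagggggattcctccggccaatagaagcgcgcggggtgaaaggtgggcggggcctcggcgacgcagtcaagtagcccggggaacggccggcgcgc

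Other steps of secretion also held rises and no falls on the deposited scale, where 5.02% of all genes tested rose and 3.70% fell. Of 26 tested genes for protein targeting and translocation, 7 rose and 0 fell (median log2 change 0.26), among them the signal peptidase subunits Spcs1 (0.55) and Sec11c (0.54) and the translocon-associated Ssr4 (0.53). Only 1 rose with quantile normalization, 3 with equal totals, and 0 or 1 with 1 library left out. Of 49 N-glycosylation genes, 12 rose and 0 fell (median 0.22), led by Man1b1, the ER mannosidase, at 313 and 343 FPKM in PB, against 197 and 198 FPKM in PrePB (log2 change 0.73, SE 0.09, adjusted p = 0.00095). The oligosaccharyltransferase subunits Krtcap2 (0.58), Ddost (0.50) and Rpn2 (0.47) were among them. With 1 library left out, 1 of the 12 was called. Of 56 genes for ER to Golgi transport, 8 rose and 0 fell (median 0.17). Kdelr3, a receptor that returns proteins to the ER, was at 11.7 and 10.2 FPKM in PB, against 4.96 and 5.58 FPKM in PrePB (0.93), and kept its call without each library, which the other 7 did not. The cargo receptor gene Tmed1 (0.75) and the coat subunit gene Copz2, at 8.91 and 12.8 FPKM in PB and at 4.47 and 4.17 FPKM in PrePB, were among those. With equal totals 6 N-glycosylation and 4 transport genes rose, and 1 translocation and 1 transport gene fell.

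**Figure D4:**
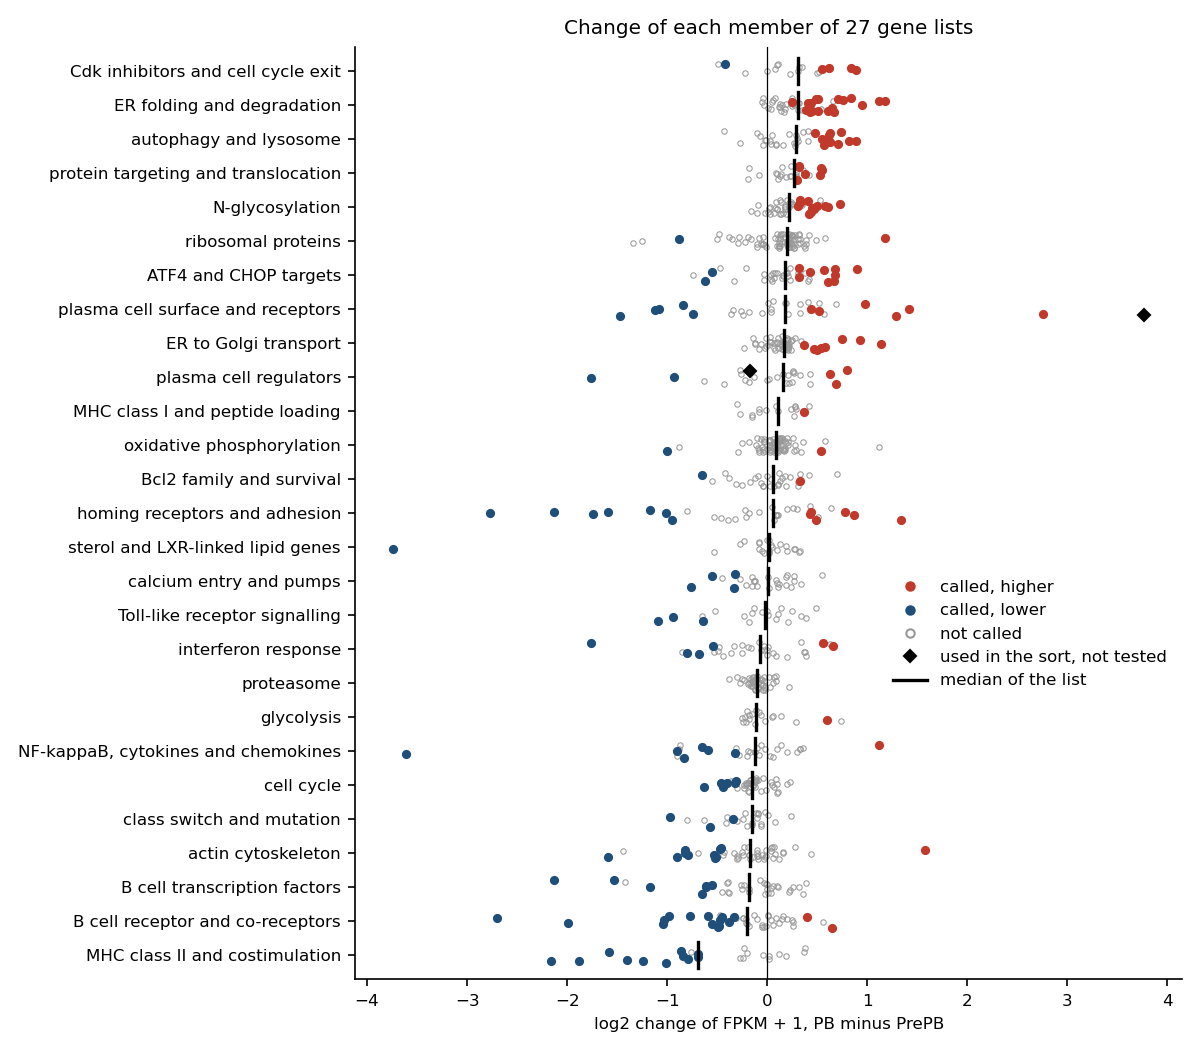
Log2 change of FPKM + 1 (PB minus PrePB) of every tested member of 27 gene lists, sorted by their medians (black bars), with called members in red or blue. The MHC class II list has the lowest median, -0.69, and the Cdk inhibitor and ER folding lists the highest, 0.31 each.

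Of 34 tested lysosomal and autophagy genes, 11 rose, 0 fell and 23 did not pass, with a median log2 change of 0.29, and 10 rose under each of the 2 scalings, with 2 falls under equal totals. With the replicate block 15 rose and 2 fell, beside 919 and 639 of all 11069 genes tested. With 1 library left out, 3 to 6 rose. Wipi1, which marks forming autophagosomes, was at 16.8 and 20.2 FPKM in PB, against 9.37 and 9.66 FPKM in PrePB (log2 change 0.89, SE 0.13, adjusted p = 0.00279). Ctsa, a lysosomal carboxypeptidase, was at 169 and 160 FPKM in PB and at 118 and 106 FPKM in PrePB (0.55). The cathepsins Ctsb (0.82), Ctsl (0.71) and Ctsd (0.63) and Lamp2 (0.63) rose as well, but 3 of the 11, Wipi1 and Ctsa among them, kept their call without each of the 4 libraries. The macrophage marker Cd68, itself a lysosomal membrane protein, was at 28.8 and 27.1 FPKM in PB and at 16.8 and 13.2 FPKM in PrePB beside S100a8, S100a9, Mpo and Elane at 0.

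Targets of ATF4 and CHOP, the amino acid and integrated stress response, rose in part. Of 36 tested, 9 rose and 2 fell, with a median log2 change of 0.18, and with equal totals 4 rose and 3 fell. With 1 library left out, 2 to 5 rose and 0 or 1 fell. Pycr1, an enzyme of proline synthesis, was at 48.3 and 50.5 FPKM in PB, against 27.5 and 24.6 FPKM in PrePB (log2 change 0.90, SE 0.13, adjusted p = 0.00326). Pck2, mitochondrial phosphoenolpyruvate carboxykinase, was at 109 and 129 FPKM in PB and at 70.4 and 77.9 FPKM in PrePB (0.67). The amino acid transporter genes Slc3a2 (0.68), Slc6a9 (0.68) and Slc7a3 (0.61) rose, while Trib3 (-0.62), a pseudokinase that restrains ATF4, and Cth (-0.55), which makes cysteine, fell. Pycr1 and Pck2 kept their call without each of the 4 libraries.

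Of 42 tested cell cycle genes, 6 fell, 0 rose and 36 did not pass, with a median log2 change of -0.15. Over all genes tested 3.70% fell and 5.02% rose. With equal totals 13 of the 42 fell, beside 1143 of all 11069 genes tested. The 6 called on the deposited scale were genes of DNA replication and nucleotide supply, Tk1 (-0.63), Tyms (-0.46), Cdc6 (-0.44), Mcm4 (-0.40), Mcm3 (-0.32) and Mcm5 (-0.31). Tk1, thymidine kinase, was at 13.3 and 16.5 FPKM in PB, against 24.6 and 22.4 FPKM in PrePB (adjusted p = 0.00749). Of 17 tested Cdk inhibitors and genes of cell cycle exit, 4 rose and 1 fell (median 0.31), and 9 rose and 1 fell with the replicate block, but 2 rose and 3 fell with equal totals. The counts over all 11069 genes tested were 919 and 639 with the block, and 315 and 1143 with equal totals. Cdkn2a was at 206 and 177 FPKM in PB and at 120 and 93.3 FPKM in PrePB (0.84, adjusted p = 0.0125), and its neighbour Cdkn2b was at 46.4 and 41.3 FPKM in PB and at 23.9 and 22.4 FPKM in PrePB (0.89, adjusted p = 0.0452). Tob1 (0.62) and Mxi1 (0.55) rose, and the p107 gene Rbl1 fell by 0.42. None of these 11 calls held without each of the 4 libraries.

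Few survival genes were called. Of 30 tested Bcl2 family and survival genes, 1 rose and 1 fell, and 5 rose and 3 fell with the replicate block. With the block 919 of all 11069 genes tested rose and 639 fell. Mcl1, on which plasma cell survival depends, was at 382 and 405 FPKM in PB and at 314 and 312 FPKM in PrePB (log2 change 0.33, adjusted p = 0.0352, lost without each of the 4 libraries and under both scalings). Bid, a death agonist, was at 24.9 and 23.5 FPKM in PB, against 42.8 and 34.8 FPKM in PrePB (-0.65, adjusted p = 0.00557, and 0.0552 without PB replicate 2). Bcl2l11, which encodes the death agonist Bim, was at 308 and 276 FPKM in PB and at 186 and 172 FPKM in PrePB, with the groups apart (log2 change 0.70, SE 0.25, adjusted p = 0.116, and 0.00878 with the block). Bcl2 was at 4.33 and 4.55 FPKM in PB and at 4.76 and 4.43 FPKM in PrePB, and Bcl2l1 at 138 and 135 FPKM in PB and at 128 and 121 FPKM in PrePB.

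Of 20 tested genes for Toll-like receptors and their partners, 3 fell and 0 rose. Tlr1 was at 0.270 and 0.104 FPKM in PB, against 1.56 and 1.48 FPKM in PrePB, and Tlr9, the sensor of CpG DNA, was at 0.375 and 0.583 FPKM in PB, against 1.72 and 1.94 FPKM in PrePB. The third was Ly86 (-0.64), a secreted partner of the LPS-linked receptor RP105, and with the replicate block 5 fell and 1 rose. Tlr4, the LPS receptor itself, did not pass (log2 change 0.11, adjusted p = 0.757). Of 29 tested genes for NF-kB, cytokines and chemokines, 6 fell and 1 rose. Beside Ltb the falls were Nfkbid (-0.83), Nfkbie (-0.65), Bcl3 (-0.59), Nfkb2 (-0.32) and Il6, which was listed at 0 in both PB libraries and was at 1.31 and 0.508 FPKM in PrePB. The rise was Ebi3, a shared chain of interleukin 27 and interleukin 35, at 102 and 115 FPKM in PB, against 50.1 and 48.6 FPKM in PrePB (log2 change 1.12, SE 0.17, adjusted p = 0.00339). Ltb, Ebi3, Tlr1 and Tlr9 kept their call without each of the 4 libraries and the other 6 did not. Of 32 tested interferon response genes, 4 fell and 2 rose, and Ifit1 fell the most, to 1.06 and 0.902 FPKM in PB, against 5.23 and 6.18 FPKM in PrePB (-1.76).

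Of 48 tested members of the actin cytoskeleton list, 10 fell, 1 rose and 37 did not pass, with a median log2 change of -0.17. With equal totals 20 of the 48 fell, beside 1143 of all 11069 genes tested. With 1 library left out, 5 to 7 fell. Evl, which promotes actin filament growth, was at 0.795 and 1.21 FPKM in PB, against 4.38 and 5.65 FPKM in PrePB (log2 change -1.59, SE 0.15, adjusted p = 0.000319). Lcp1, the plastin of blood cells, was at 49.9 and 50.8 FPKM in PB, against 84.5 and 91.2 FPKM in PrePB (-0.79), opposite to its relative Pls1. Myo1e (-0.90), Dock10 (-0.82) and Wipf1 (-0.47) fell with them, and these 5 and Pls1 kept their call without each of the 4 libraries.

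The remaining lists held few calls. Of 27 tested calcium genes 4 fell and 0 rose, with 0 to 2 falls when 1 library was left out. Of 23 genes for class switch and mutation 3 fell and 0 rose, among them the DNA end-binding Ku70 gene Xrcc6 (-0.57). Of 17 MHC class I genes 1 rose and 0 fell, and of 19 glycolysis genes 1 rose and 0 fell. Of 23 sterol and lipid genes Apoe was the 1 call. Of 75 oxidative phosphorylation genes 1 rose and 1 fell. The 46 proteasome genes had 0 calls (0 higher, 0 lower), with 13 lower under equal totals, where 1143 of all 11069 genes tested were lower. Of 79 ribosomal protein genes 1 rose and 1 fell, Rps10 and Rpl27, whose values are uncertain because reads can be shared with near-identical copies. Of the calls in these lists, Xrcc6 and Apoe kept theirs without each of the 4 libraries. With the replicate block the calls among calcium genes were 2 rises and 4 falls, among class switch genes 5 falls, among sterol and lipid genes 3 rises and 2 falls, among class I genes 2 rises, among oxidative phosphorylation genes 2 rises and 1 fall, and among ribosomal protein genes 3 rises and 1 fall.

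In bulk samples, fewer cells of a type and less RNA per cell cannot be told apart, and this holds for each fall and rise above. The falls of B cell genes in PB came beside the lower B cell marker sum and beside an Sdc1 level of 4.91 to 5.24 FPKM in PrePB that was above the 0.989 and 0.978 FPKM of ActB. The part of either in the results was not tested.

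The step was then set beside the one before it, from ActB to PrePB, in a test of the difference between both changes in wt (second step minus first step). The comparisons share the PrePB libraries, so the difference was tested in 1 model and each step is given by its own values. The difference was called for 2511 genes (22.7%), 1087 positive and 1424 negative. By value, the change was larger in size in the second step for 104 of them, larger in the first for 2406, and the same for 1. The test was of the signed difference, and the sizes were not tested against each other. The median size of the log2 change over all genes was 0.16 in the second step and 0.38 in the first. Without PrePB replicate 1 the count was 1611, without PrePB replicate 2 it was 1410, and without replicate 1 of all 3 wt populations it was 1039.

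The ER folding list had a median log2 change of 2.40 in the first step and of 0.31 in the second. Hid1, a gene of dense core vesicle formation, changed by 4.96 in the first step and by 0.50 in the second (difference -4.46, adjusted p = 1.72e-06), and Derl3 by 4.19 and 0.39. The elongation factor Ell2 changed by 3.09 and 0.21, and the survival gene Bcl2l1 by 3.08 and 0.13, neither of which passed the test in the second step. Falls of the first step that ended there gave positive differences, such as those of Avil (-4.04 in the first step and 0.04 in the second) and Slc44a2 (-2.56 and -0.26). Tlr9 changed by -4.31 and -0.94. Nedd4, a ubiquitin ligase, turned round, with -2.65 in the first step and 0.61 in the second (difference 3.26, adjusted p = 4.21e-06).

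Some genes were highest in PrePB. Apoe was at 87.1 and 83.1 FPKM in ActB, at 1237 and 1757 FPKM in PrePB and at 92.6 and 130 FPKM in PB, so that PB and ActB lay close together (first step 4.10, second step -3.74, difference -7.84, adjusted p = 4.78e-06). Prg2, a granule proteoglycan best known from eosinophils, was at 0.134 and 0 FPKM in ActB, at 38.6 and 52.5 FPKM in PrePB and at 17.0 and 12.8 FPKM in PB (5.43 and -1.55). Ltb changed by 1.69 and -3.61, Il2ra by 1.44 and -1.47, Itgb3 by 1.55 and -1.17, and Itga6 by 1.38 and -1.01. Cd79a changed by 0.76 and -1.04 and H2-Eb2 by 0.54 and -1.24. For Ltb, Cd79a and H2-Eb2 the value of the second step was the larger in size, and for Il2ra the sizes were nearly the same. Pde2a was at 29.2 and 27.4 FPKM in ActB, at 19.8 and 21.3 FPKM in PrePB and at 1.27 and 0.781 FPKM in PB, with -0.45 in the first step and -3.42 in the second (difference -2.97, adjusted p = 5.95e-05). Cxcr5 changed by -0.75 and -2.13 (difference -1.37, adjusted p = 0.000597). Pax5 fell in both, by 3.35 and 2.13 on the log2 scale.

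The ko libraries offer the same step in other mice. Mzb1 was at 1008 and 926 FPKM in ko PB and at 899 and 871 FPKM in ko PrePB, so transcripts assigned to it were reduced in ko and not absent. Of the 556 genes that rose in wt, 550 had the same sign in ko and 412 were called there in the same direction, and of the 410 that fell, 404 had the same sign and 282 were called. None of the 966 was called in the opposite direction in ko (0 of each set). In ko 10.8% of all genes were called, and the share of all genes with the same sign in wt and ko was not computed. Both steps were tested in 1 fit that shares the spread of each gene, so the calls in ko and wt are not independent. The median log2 changes of the 556 were 0.57 in ko and 0.60 in wt, and those of the 410 were -0.56 in ko and -0.65 in wt. The genotype difference in the step was called for 0 genes (0%, limma), with 272 at an unadjusted p below 0.05 and 4 called without the filter on low values. A missed threshold with 2 libraries a group does not show that the steps were alike. Among values under 0.5 FPKM, 15.3% to 20.5% shared 1 ratio with PB replicate 1 in the other wt libraries of the step and 14.6% in ko PrePB replicate 1, but 2.5% to 4.5% in the other 3 ko libraries, and the part of that difference in the ko values was not tested.

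**Figure D5:**
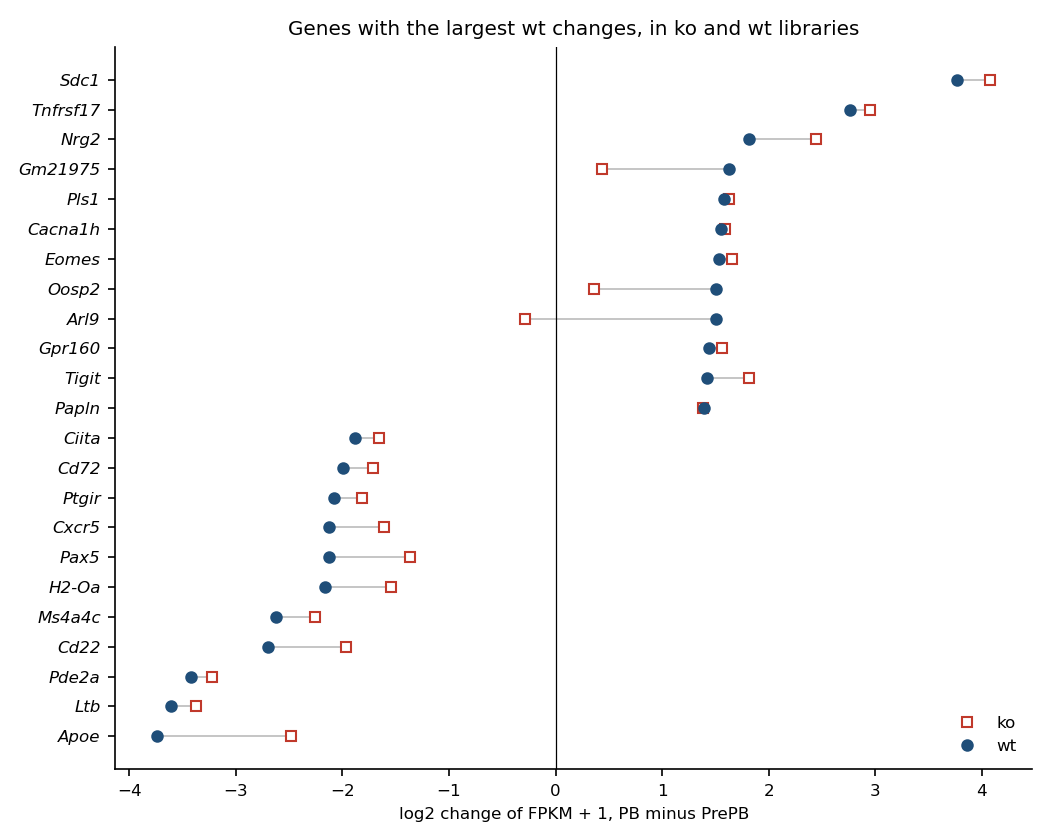
Log2 change of FPKM + 1 (PB minus PrePB) in ko (open squares) and wt (filled circles) for the 12 largest rises of wt and 11 of its 12 largest falls. The values lie close together for most genes, such as Ltb at -3.37 in ko and -3.61 in wt, and furthest apart for Gm21975, Oosp2, Arl9 and Apoe. Smaller gaps are seen for Pax5, Cd22, H2-Oa and Nrg2.

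Among the 24 genes with the largest wt changes, Ltb changed by -3.37 in ko and -3.61 in wt, Tnfrsf17 by 2.95 in ko and 2.76 in wt, and Cacna1h by 1.59 in ko and 1.55 in wt. Apoe was at 307 and 321 FPKM in ko PB and at 1466 and 2090 FPKM in ko PrePB, a change of -2.48 in ko against -3.74 in wt, and the difference between the genotypes was not called (1.26, adjusted p = 1). Pax5 changed by -1.37 in ko and by -2.13 in wt, Cd22 by -1.97 in ko and -2.70 in wt, and H2-Oa by -1.54 in ko and -2.16 in wt. Nrg2 changed by 2.44 in ko and 1.82 in wt. Arl9 changed by -0.29 in ko and 1.51 in wt, Oosp2 by 0.36 in ko and 1.51 in wt, and Gm21975 by 0.44 in ko and 1.63 in wt. Spib, which is not among the 24, changed by -0.36 in ko, without a call there, and by -1.53 in wt. None of these differences was called.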

How the data were processed

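RNA was measured in 12 libraries, 2 for each of 3 sorted populations and 2 genotypes. Per the labels, polyadenylated RNA was selected and libraries were stranded. The authors deposited FPKM values, 1 file per library with 24325 gene symbols. Per the submitters' processing notes, the mm9 build was used with Cuffnorm 2.2.1, Cuffdiff and Cufflinks 2.2.1, TopHat2 2.0.14, and bcl2fastq in versions 2.17.1.14 and 0.3.1. The annotation, the scaling and the use of strand are not given in the sources used here. A few genes are not reported here. Depth is unknown, so no counting interval was computed.

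Values were analysed as log2(FPKM + 1). The 11069 genes that reached 1 FPKM in 2 or more of 12 libraries were tested with limma 3.58.1 (trend) in R 4.3.3, 6 group means, and residual and prior degrees of freedom of 6 and 4.49. Tests were two-sided, with Benjamini-Hochberg adjustment and a threshold of 0.05. SE is that of the log2 change, and folds are on the FPKM + 1 scale. Figures were drawn with matplotlib 3.10.9.

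The members, 27 gene lists and tests were chosen with earlier results of these data known. By rule, the genes named were Sdc1, Tnfrsf17, Prdm1 and Mzb1, the 12 largest called rises and falls without overlap between groups and with at least 1 FPKM on average in the higher group, up to 4 called members of each list in each direction by p (the 2 of lowest p where fewer than 2 were called), any member of 6 of the lists, and up to 5 genes each way for both tests of differences. Names beyond the rule, among them Cd79a, Cd79b, Jchain, Slpi, the chaperones Hspa5, Hsp90b1, Calr and Creld2, and the further called members of a list, were chosen after their values were seen.

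Replicate numbers were treated as pairing libraries of a genotype. The submitters' names give both wt libraries of a replicate a common number, and Xist and Y-linked transcripts follow it in wt. Across genes, the replicate difference of PB correlated with that of PrePB at 0.32 in wt and 0.10 in ko, while wt and ko correlated at -0.05 in PB and -0.08 in PrePB. The fit with this block is an alternative. Others were a pseudocount of 0.1, no filter, a filter of 5 FPKM, quantile normalization, equal totals (small RNA genes left aside), fits on the compared or the wt libraries alone, a log2 change of 1 as the minimum, and fits with libraries left out. Where 1 library was left in a group, it was assumed to vary like the other groups. Promoters are from RefSeq (GRCm38.p6), matched by symbol for 8 of 9 class II H2 genes and 37 of 47 ER genes.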

Additional observations from a re-analysis of the deposited data

How the results depend on the processing

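The counts of wt plasmablasts against wt pre-plasmablasts depended on the libraries and the scaling. Beside 966 calls (556 higher, 410 lower), there were 1558 with the replicate block (919 higher, 639 lower), 1458 with equal totals (315 higher, 1143 lower), 532 in the 4 libraries alone (328 higher, 204 lower), 146 with a minimum log2 change of 1 (60 higher, 86 lower), and 58 without replicate 1 of the 3 wt populations (17 higher, 41 lower). Leaving out 1 library gave 248 to 418 calls, 108 to 236 higher and 140 to 193 lower. The pseudocount, both filters, quantile normalization and the 6 wt libraries alone kept all 3 counts within 1.5 times. The cause of the differences was not tested, apart from the fewer samples in each smaller fit.

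The genotype difference in the step was called for 0 genes except without the filter, with 4 genes (2 higher, 2 lower in ko, 1700001J03Rik, 1700041A01Rik, 1700096J18Rik and Tcte3, all named after their values were seen), and with 1 library left out, 0 to 1 (0 to 0 higher, 0 to 1 lower). That 1 gene was the small nucleolar RNA gene Snora65, without ko pre-plasmablast replicate 2. The difference between the steps was called for 2511 genes (1087 positive, 1424 negative), for 1376 with a minimum log2 change of 1 (547 and 829) and for 1039 without replicate 1 of the 3 wt populations (403 and 636). Leaving out 1 library gave 1410 to 2357, 555 to 1065 positive and 855 to 1306 negative.

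Of 286 named genes, 143 were called and 60 of these kept their call without each of the 4 libraries. The direction of 1 called gene reversed: Mzb1 changed by -0.51 with quantile normalization. The block added calls for 23 named genes and removed 0. Apart from the genes for which its value is given, it changed no other call of a single gene that the text rests on. List counts moved with it, to 15 higher and 2 lower for autophagy and lysosome, 22 higher for ER folding and 10 lower for B cell transcription factors. The actin list had 14 lower, and homing receptors 9 higher and 9 lower. Among all genes tested 919 were higher and 639 lower with the block. FPKM without counts limits what can be said of genes near or below 1 FPKM, such as H2-Oa, Tlr1 and Il6.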
